A study of Mus musculus with 8 samples.

Results

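Genes that write, erase and read histone methylation, and the ATP-driven remodellers that move nucleosomes, were followed in microglia, the resident macrophages of the brain, that were sorted from young wild-type mouse hypothalamus. The genes were taken by name from the deposited count table: the lysine methyltransferase families Kmt2, Kmt5, Setd and Nsd, the demethylases Kdm1 to Kdm7, the chromodomain helicases Chd1 to Chd9, the Smarc and Arid genes, and Ash1l and Bod1l. The names matched 71 genes. The 3 on chromosome X (Kdm6a, Smarca1 and Kdm5c) and the 1 on chromosome Y (Kdm5d) were left out, which left 67 of the 35583 genes in the table. Of these, 65 passed the filter on low counts. Arid3c had 0 counts in every library, which in the shallowest library allows up to 1.01 CPM (counts scaled to a common library total), and Kdm4d was too low to be tested. One match, Kdm6bos, is an antisense RNA and not an enzyme gene.

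The animals had received dye-labelled plasma protein 20 h before the cells were collected. Microglia were divided by whether they carried the label into a plasma-negative group of 4 libraries and a plasma-positive group of 4 libraries, so both groups came from injected, wild-type animals. RNA was made into Smart-seq2 libraries, which cover whole transcripts from little input and count reads, not molecules. The labels do not say whether the 4 libraries of a group came from separate animals or from pools, so p-values measure the spread between these libraries, which may be technical.

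In chromatin, methyl groups on histone tails mark the state of a gene. Kmt2 and Setd1 enzymes place the lysine 4 mark of histone H3 at promoters and enhancers, Setd2, Nsd1 and Ash1l methylate lysine 36, and Kdm enzymes remove such marks. Chd and Smarc proteins use ATP to slide or evict nucleosomes, and several Arid proteins are subunits that target the Smarc (SWI/SNF) complexes to DNA. In macrophages and microglia these enzymes are known to help set which enhancers and inflammatory genes can be used. Many of them are very large proteins made from long transcripts.

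Library totals ran from 2963094 to 21422738 counts, with the smallest in plasma-negative replicate 4. Counts assigned to genes made up 68.9% to 74.6% of the total implied by the deposited RPKM values in plasma-negative libraries and 81.4% to 84.2% in plasma-positive libraries. The groups did not overlap in this share, and its part in the results was not tested. The 8 microglia markers listed summed to between 58449 and 69422 CPM in plasma-negative and between 64685 and 69651 in plasma-positive libraries. Listed oligodendrocyte markers summed to 146 to 230.2 and 221 to 466, astrocyte markers to 208 to 319 and 188 to 199, neuron markers to 2.69 to 29.001 and 3.25 to 253, and endothelial markers to 27.3 to 52.7 and 20.2 to 64.4 CPM. Border macrophage markers summed to 0.881 to 3.61 and 1.76 to 15.8 (Cd163 and Lyve1 at 3 counts or fewer everywhere), and monocyte or neutrophil markers to 0.291 to 13.8 and 0 to 474 (Plac8 at 3 counts or fewer). Not all of these markers entered the test. Those that did were 8 of 8 microglia, 4 of 5 neuron, 4 of 5 oligodendrocyte and 2 of 5 astrocyte markers. Among the rest, 2 of 5 endothelial, 1 of 5 border macrophage and 0 of 5 monocyte or neutrophil markers did. The others could not be called. Of the markers tested, 1 passed, the microglia gene Csf1r, which was higher in plasma-positive libraries. Astrocyte markers summed to less than the plasma-negative range in every plasma-positive library, and the part of any of these in the results was not tested. In such bulk samples, fewer cells of a type and less RNA per cell cannot be told apart.

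Of the 65 tested members, 4 were lower in plasma-positive microglia and 0 were higher at an adjusted p under 0.05 (edgeR's quasi-likelihood test, Benjamini-Hochberg adjustment over all 13277 tested genes). The 4 were Ash1l, Bod1l, Chd9 and Setd5. They are 6.15% of the tested members, beside 0.565% of all tested genes called lower and 0.844% called higher. Ash1l and Bod1l entered by their own names and not through a family. The members were chosen with earlier results of these data known. At an unadjusted p under 0.05, 22 members were lower (33.8%) and 0 higher, beside 6.67% of all tested genes lower. The log2 fold change, plasma-positive over plasma-negative, was below 0 for 51 of the 65 members (78.5%), beside 49.6% of all tested genes. Its median over the members was -0.38, with quartiles of -0.58 and -0.05, beside a median of 0.01 over all tested genes. These are counts over the members that passed the filter, with no test of the list itself.

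In 15 members (23.1%) every plasma-positive library lay below every plasma-negative library, beside 4.59% of all tested genes, and in 0 members did every plasma-positive library lie above, beside 5.68%. The lower count was 8 on the deposited RPKM values, beside 3.04% of all tested genes, and 23 on CPM from library totals alone, beside 6.68%. On the TMM scale the 15 were Arid1a, Arid2, Ash1l, Bod1l, Chd1, Chd6, Chd9, Kdm3a, Kdm7a, Kmt2a, Nsd1, Nsd3, Setd2, Setd5 and Smarca2. Summed over all 67 members, the libraries held 4308, 4595, 4521 and 4151 CPM (scaled with TMM factors) in plasma-negative replicates 1 to 4 and 3052, 3181, 3234 and 3505 in plasma-positive replicates 1 to 4. The sum was 4394 ± 202 CPM over the plasma-negative and 3243 ± 191 CPM over the plasma-positive libraries (SD, n = 4 per group), a ratio of -0.44 on the log2 scale, and the groups did not overlap.

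The members are long genes, and length moved with the difference between groups over the whole table. Their median merged exon length was 10057 bases, beside 3976 over all tested genes, of which 8.40% were longer than that. Among the 5176 tested genes with a mean of at least 32 CPM, the log2 fold change fell with exon length (Spearman rho -0.457, a description across genes that share the same 8 libraries). A correction for exon length and GC content was run in each library by a smooth fit on those genes, after which this rho was -0.002. With it, 0 of the 65 members passed the adjusted threshold, beside 0.55% of all tested genes called in either direction, and 42 members were below 0 (64.6%, beside 55.8% of all tested genes). The members' median moved from -0.38 to -0.14, and that of all tested genes from 0.01 to -0.07. The size of this move rests on the limit of 32 CPM, which was set after the data were seen: with the same correction fitted on all tested genes the members' median was -0.30, 53 members were below 0 and 0 were called. In that fit the median of all tested genes was -0.06, and 0.121% of them were called in either direction. That fit is called the all-gene fit, and its values are given for the families, for the called members and for some of the other named members. Since the correction removes any difference that runs with length, a difference in long genes and an effect of length on the libraries cannot be told apart from it.

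**Figure D1:**
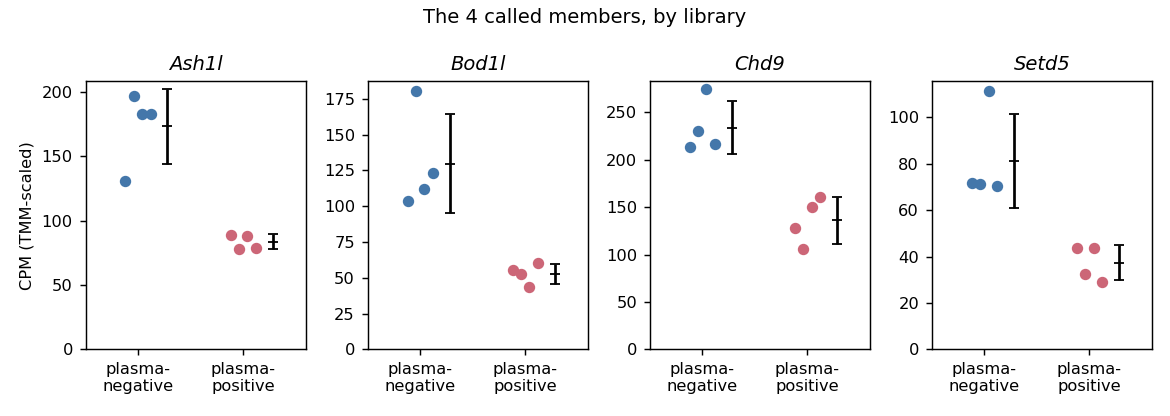
CPM (TMM-scaled) in each library for Ash1l, Bod1l, Chd9 and Setd5, plasma-negative and plasma-positive libraries side by side; points are libraries and the bars beside them are the group mean and SD (n = 4 per group). In each of the 4 genes all plasma-positive libraries lie below all plasma-negative ones, and Setd5 plasma-negative replicate 3 lies apart at 111 CPM.

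Ash1l, a methyltransferase for lysine 36 of histone H3 that works against Polycomb silencing, fell by 1.05 on the log2 scale. The gene lies at chr3:88950622-89079375 (ENSMUSG00000028053) in the coordinates of the deposited table and has 14838 bases of merged exons. Plasma-negative replicates 1 to 4 had 131, 197, 183 and 183 CPM and plasma-positive replicates 1 to 4 had 88.9, 77.8, 88.4 and 79.2 CPM. The groups did not overlap, and plasma-positive libraries lay within a narrow range. The means were 173 ± 28.97 and 83.6 ± 5.88 CPM (SD, n = 4 per group), with a log2 fold change of -1.05 ± 0.15 (SE; edgeR adjusted p = 0.00732). It kept the call without any single library (edgeR adjusted p from 0.0114 to 0.0343). With the length and GC correction the change was -0.65 (edgeR adjusted p = 0.113), and in the all-gene fit -0.81 (edgeR adjusted p = 0.156). Neither is a call, nor was Ash1l called by limma on log2(RPKM + 1) (adjusted p = 0.0641).

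Bod1l, a large nuclear protein known to protect stalled replication forks and to work with the Setd1a methyltransferase, showed the largest fold among the 4 genes. It lies at chr5:41787538-41844315 (ENSMUSG00000061755) and has 11995 bases of exons. Plasma-negative replicates 1 to 4 had 103, 181, 112 and 123 CPM, with replicate 2 the highest, and plasma-positive replicates had 55.2, 52.97, 43.3 and 60.1 CPM. The highest plasma-positive library was well below the lowest plasma-negative one. The means were 129.7 ± 34.8 and 52.9 ± 7.04 CPM (SD, n = 4 per group), a log2 fold change of -1.30 ± 0.20 (SE; edgeR adjusted p = 0.0103). It also kept the call without any single library (edgeR adjusted p from 0.0202 to 0.0434). With the length and GC correction the change was -0.99 (edgeR adjusted p = 0.0548), just outside the threshold. In the all-gene fit it was -1.12 (edgeR adjusted p = 0.0845), also not a call.

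Sequences upstream of the start were looked at for 2 of the genes whose difference passed the test, Bod1l and Chd9, because they are the members that passed it and have an entry within 500 bases of their deposited start in the RefSeq promoter table (GRCm38.p6). Each is the 250 bases before the RefSeq start. For Bod1l that start is the deposited one, whereas for Chd9 it lies downstream, so the whole Chd9 window falls inside the gene as the deposited table draws it. Sequences are printed 5′ to 3′ on the strand of the gene. Capitals mark a GC box, the letters GGGCGG or their reverse complement CCGCCC, to which Sp1-type factors are known to bind.
Bod1l, chr5:41844316-41844565, minus strand: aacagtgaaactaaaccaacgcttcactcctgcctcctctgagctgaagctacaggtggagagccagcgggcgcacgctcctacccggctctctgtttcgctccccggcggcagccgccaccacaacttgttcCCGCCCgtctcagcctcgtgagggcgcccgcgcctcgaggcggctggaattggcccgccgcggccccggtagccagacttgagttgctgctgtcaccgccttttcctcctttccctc
Chd9, chr8:90828585-90828834, plus strand: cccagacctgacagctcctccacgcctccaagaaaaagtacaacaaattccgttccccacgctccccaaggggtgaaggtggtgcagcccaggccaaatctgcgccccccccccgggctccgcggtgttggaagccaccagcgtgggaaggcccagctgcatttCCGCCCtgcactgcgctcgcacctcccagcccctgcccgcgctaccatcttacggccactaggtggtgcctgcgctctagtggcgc
The Bod1l window held 22 CG dinucleotides and the Chd9 window 16, and each held 1 GC box. Windows of the same size that lay within 500 bases of the deposited start were compared for 36 tested members and 8175 other tested genes, searching both strands. GC boxes were in 27 of the 36 member windows and in 60.1% of the others, and the median number of CG dinucleotides was 20.5 and 16. The CCAAT box (CCAAT) was in 13 member windows (36.1%) and 37.1% of the others, the letters CCGGAAG, read by ETS factors, in 5 (13.9%) and 15.8%, and the TATA box (TATAAA) in 1 (2.78%) and 5.91%. The member windows were thus richer in CG and had the GC box more often than the other windows, as a description of letters with no test, and the CCAAT and ETS letters were about as frequent in both.

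Among the other writers, the Setd genes, named for their SET methyltransferase domain, were the family with the lowest median after Ash1l and Bod1l. All 8 had a log2 fold change below 0, with a median of -0.56 and a range from -1.13 to -0.05, and 1 of them, Setd5, passed the test. Setd5, a SET-domain protein tied to intellectual disability and to the control of histone acetylation and methylation, lies at chr6:113077365-113153435 (ENSMUSG00000034269) with 18347 bases of exons. Its plasma-negative libraries had 71.8, 71.1, 111 and 70.3 CPM and its plasma-positive libraries 43.5, 32.5, 43.9 and 29.2 CPM. Plasma-negative replicate 3 was high and the other 3 were nearly equal, and the groups did not overlap. The means were 81.2 ± 20.2 and 37.2 ± 7.52 CPM (SD, n = 4 per group), a log2 fold change of -1.13 ± 0.23 (SE; edgeR adjusted p = 0.0356). Leaving out 1 library at a time kept the call in 1 of 8 cases, without plasma-negative replicate 4 (edgeR adjusted p = 0.0484), and ended it in the other 7 (0.0657 to 0.107). With the length and GC correction the change was -0.67 (edgeR adjusted p = 0.295), or -0.93 in the all-gene fit (edgeR adjusted p = 0.198), and limma on log2(RPKM + 1) gave an adjusted p of 0.185. With the replicate number as a block in the test the change was -1.12 and was not called (edgeR adjusted p = 0.0659).

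Setd2, which trimethylates lysine 36 along transcribed genes, had 86.2, 136, 73.2 and 89.5 CPM in plasma-negative and 70.96, 63.5, 58.6 and 37.6 CPM in plasma-positive libraries. The groups did not overlap, yet the change of -0.74 ± 0.24 (SE) did not pass the test (edgeR adjusted p = 0.186). Setd3, known as a histidine methyltransferase of actin rather than of histones, had 62.98 ± 15.2 and 60.8 ± 3.23 CPM (SD, n = 4 per group), a change of -0.05 ± 0.20 that is well within its spread and whose sign turned without plasma-negative replicate 2 (0.12) and under several other settings. Setd6, a methyltransferase of the NF-kB subunit RelA, was low, with 3.01, 0, 8.09 and 14.5 CPM in plasma-negative and 0.440, 1.78, 9.80 and 3.69 CPM in plasma-positive libraries, and its groups overlapped. Summed over the 8 Setd genes, libraries held 333 ± 42.7 CPM over the plasma-negative and 224 ± 23.6 CPM over the plasma-positive libraries (SD, n = 4 per group). No Setd sum in plasma-positive libraries reached the lowest plasma-negative one.

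The Kmt2 genes encode the mixed-lineage leukaemia methyltransferases of lysine 4, and all 5 had negative log2 fold changes with a median of -0.43 and a range from -0.58 to -0.25, none of which passed the test. Kmt2e, whose SET domain has no established methyltransferase activity, was the highest of the family per length, with 22.2 ± 0.960 and 16.5 ± 4.15 CPM per kilobase in plasma-negative and plasma-positive libraries. In CPM it had 232, 235, 219 and 243 in plasma-negative libraries and 128, 181, 152 and 229 in plasma-positive ones. The plasma-negative libraries were close to each other and plasma-positive replicate 4 overlapped them, and the change of -0.43 ± 0.16 (SE) was not called (edgeR adjusted p = 0.259). Kmt2a, the founding member, had 80.6, 95.5, 63.5 and 70.7 CPM in the plasma-negative group and 49.2, 52.6, 58.3 and 48.3 CPM in the plasma-positive group, with no overlap between groups and a change of -0.58 ± 0.19 (SE; edgeR adjusted p = 0.175).

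Kmt2c and Kmt2d, which monomethylate lysine 4 at enhancers, are among the longest members, with 20291 and 19931 bases of exons. Kmt2c had 83.03 ± 12.2 and 69.6 ± 20.5 CPM and Kmt2d had 45.8 ± 9.46 and 37.4 ± 8.49 CPM (SD, n = 4 per group). Their changes of -0.25 ± 0.23 and -0.30 ± 0.25 (SE) did not pass the test, and both turned positive, to 0.24 and 0.11, with the length and GC correction, but not in the all-gene fit (-0.01 and -0.30). The 5 Kmt2 genes summed to 455 ± 22.4 CPM over the plasma-negative and 343 ± 53.4 CPM over the plasma-positive libraries (SD, n = 4 per group), without overlap.

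The Nsd genes dimethylate lysine 36, and 2 of the 3 were lower in every plasma-positive library, although none passed the test. Nsd3 had 119, 151, 110.1 and 119 CPM in plasma-negative and 68.3, 93.5, 95.7 and 98.4 CPM in plasma-positive libraries, a change of -0.49 ± 0.17 (SE; edgeR adjusted p = 0.205). Nsd1, mutated in Sotos syndrome, had 183, 153, 242 and 158 CPM in the plasma-negative group and 133, 148, 133 and 150.5 CPM in the plasma-positive group, a change of -0.38 ± 0.16 (SE; edgeR adjusted p = 0.305) that was 0.08 with the correction and -0.11 in its all-gene fit. Nsd2 had overlapping groups, and its change was 0.02 ± 0.41. The family sum was 337 ± 32.1 CPM over the plasma-negative and 259 ± 21.9 CPM over the plasma-positive libraries (SD, n = 4 per group), with no overlap, and its log2 ratio of -0.38 became 0.07 under the length and GC correction with its limit of 32 CPM.

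The Kmt5 genes, which place the lysine 20 mark on histone H4, showed no common direction. Kmt5b, which with Kmt5c builds up the higher methylation states, had 61.3 ± 8.61 and 50.03 ± 11.05 CPM (SD, n = 4 per group), a change of -0.29 ± 0.22 (SE). Kmt5c had 11.6, 12.9, 23.8 and 3.70 CPM in the plasma-negative group and 8.69, 17.5, 4.87 and 29.2 CPM in the plasma-positive group, and this spread left its change of 0.19 ± 0.63 (SE) without a stable sign (-0.09 without plasma-negative replicate 4 and -0.34 without plasma-positive replicate 4). The groups overlapped in all 3 genes and in their sum of 80.8 ± 12.9 CPM over the plasma-negative and 73.5 ± 2.57 CPM over the plasma-positive libraries (SD, n = 4 per group).

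**Figure D2:**
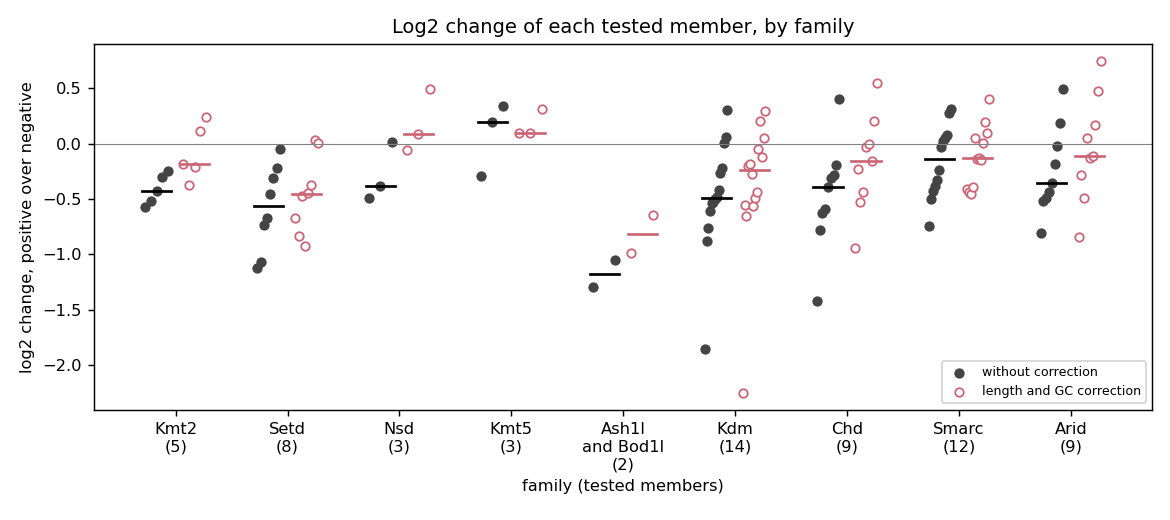
Log2 fold change (plasma-positive over plasma-negative, edgeR) of every tested member by family, with filled points for the test without correction and open points for the length and GC correction; each point is a gene and each line a family median. Without correction the medians run from -1.17 for Ash1l and Bod1l to 0.19 for Kmt5, and with it most medians lie closer to 0, with that of Nsd moving from -0.38 to 0.08 (-0.11 when the correction is fitted on all tested genes).

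No eraser passed the test, though most had values below 0. Of the 14 tested Kdm genes, 11 had a log2 fold change below 0 and 3 above, with a median of -0.49 and a range from -1.86 to 0.31. The low end is the antisense RNA Kdm6bos, which is counted among the 14 and the 11. The lowest enzyme gene was Kdm3b at -0.88 ± 0.26 (SE; edgeR adjusted p = 0.137). Kdm5a, which removes methyl groups from lysine 4, had 210.4, 203, 188 and 133 CPM in plasma-negative and 103, 137, 113 and 128 CPM in plasma-positive libraries. Only plasma-negative replicate 4 came down into the plasma-positive range, and the change was -0.61 ± 0.16 (SE; edgeR adjusted p = 0.101). Without that library the change was -0.73 and passed the test (edgeR adjusted p = 0.0347), and without any other it did not (0.146 to 0.245). Under the length and GC correction it was -0.20 (edgeR adjusted p = 0.698), or -0.34 in the all-gene fit. Kdm1a, the LSD1 demethylase of enhancer marks, had 37.9, 44.3, 82.2 and 50.8 CPM in the plasma-negative group and 37.4, 28.4, 40.5 and 46.4 CPM in the plasma-positive group, and its groups overlapped, with plasma-negative replicate 3 the highest.

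The Kdm members without overlap were Kdm3a, which removes methyl groups from lysine 9, and Kdm7a, which acts on lysines 9 and 27. Kdm3a had 52.1, 42.2, 38.5 and 48.1 CPM in plasma-negative and 21.9, 28.2, 21.6 and 35.3 CPM in plasma-positive libraries. Kdm7a had 62.6, 67.6, 65.6 and 66.96 CPM in the plasma-negative group and 35.4, 58.6, 34.8 and 53.4 CPM in the plasma-positive group. These 2 genes are given because their libraries did not overlap, a choice made after their values were seen, and neither passed the test (edgeR adjusted p = 0.184 and 0.308). Kdm6b, the inducible lysine 27 demethylase of macrophages, ranged from 26.1 to 35.7 CPM in plasma-negative and from 12.7 to 26.4 CPM in plasma-positive libraries, which overlapped.

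Kdm6bos, the shortest member at 840 bases, had the largest negative fitted value of the members, -1.86 ± 1.46 (SE), on very few reads. Its libraries had 0.266, 3.52, 2.27 and 0.673 CPM in plasma-negative and 0, 0, 0.863 and 1.01 CPM in plasma-positive replicates, and it did not pass the test (edgeR adjusted p = 0.647). Of its exon bases, 34.05% overlap Kdm6b, and whether reads were counted by strand is not given in the sources used here, so its reads and those of Kdm6b cannot be told apart there. The same holds for other members with exon overlap, of which 5 have more than 10% of their exon bases within exons of another gene, Setd1a (52.3% of exon bases), Smarcd3 (48.2%), Kdm3b (24.6%), Chd2 (19.3%) and Smarcd1 (12.7%), while of the called genes Ash1l has 2.37%, Chd9 0.847% and Bod1l and Setd5 0%, and the sums of their families carry this uncertainty. The 15 Kdm genes summed to 742 ± 46.3 CPM over the plasma-negative and 525 ± 67.2 CPM over the plasma-positive libraries (SD, n = 4 per group), without overlap.

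Among the remodellers, the chromodomain helicases held 1 of the called genes. Of 9 Chd genes, 8 had a log2 fold change below 0, with a median of -0.39 and a range from -1.43 to 0.40. Chd9, at chr8:90828352-91054516 (ENSMUSG00000056608), is a helicase of the same subfamily as Chd7 and, with 23148 bases of exons, the longest member. It had 214, 231, 275 and 217 CPM in plasma-negative libraries and 128, 106, 149.7 and 161 CPM in plasma-positive ones. The groups did not overlap, and replicate 3 was the highest of the plasma-negative group. The means were 234 ± 28.1 and 136 ± 24.5 CPM (SD, n = 4 per group), a log2 fold change of -0.78 ± 0.15 (SE; edgeR adjusted p = 0.0294). Leaving out 1 library at a time kept the call in 2 of 8 cases, without plasma-negative replicate 4 (edgeR adjusted p = 0.0457) or plasma-positive replicate 4 (0.0467), and ended it without any 1 of the other 6 (0.0614 to 0.101). With the length and GC correction the change was -0.23 (edgeR adjusted p = 0.586), or -0.43 in the all-gene fit, which did not call it either, and limma on log2(RPKM + 1) gave an adjusted p of 0.171. With the replicate number as a block in the test the change was -0.80 and was not called (edgeR adjusted p = 0.0645).

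Chd6, of the same subfamily, was named after its values were seen, because it had the most negative fold change of the Chd genes. It had 43.7, 51.2, 56.998 and 28.9 CPM in plasma-negative and 19.1, 8.998, 19.2 and 20.3 CPM in plasma-positive libraries, without overlap. The change of -1.43 ± 0.33 (SE) just missed the threshold (edgeR adjusted p = 0.0583), and it was -1.58 and passed without plasma-negative replicate 4 (edgeR adjusted p = 0.0461), but did not pass without any other library (0.105 to 0.157). Under the length and GC correction it was -0.95 (edgeR adjusted p = 0.279). Chd4, the ATPase of the NuRD complex, had 123, 90.5, 102 and 65.3 CPM in the plasma-negative group and 60.4, 64.2, 65.9 and 56.9 CPM in the plasma-positive group, and its groups overlapped only through plasma-negative replicate 4, with a change of -0.62 ± 0.20 (SE; edgeR adjusted p = 0.165). Chd1, which binds methylated lysine 4, had 71.9, 105, 70.9 and 79.4 CPM in the plasma-negative group and 52.6, 57.4, 53.6 and 52.95 CPM in the plasma-positive group, again without overlap and without a call (edgeR adjusted p = 0.149).

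Chd7, mutated in CHARGE syndrome, was the highest Chd gene per length, with 17.3 ± 4.19 CPM per kilobase in the plasma-negative group and 13.9 ± 3.37 in the plasma-positive group (SD, n = 4 per group). Its libraries had 214, 319.9, 234 and 186 CPM in the plasma-negative group and 147, 159, 244 and 218 CPM in the plasma-positive group and overlapped, and the change of -0.31 ± 0.20 (SE) was not called. Chd5, a gene known mainly from neurons, was at 2.52 CPM or less in every library. The 9 Chd genes summed to 871 ± 86.8 CPM over the plasma-negative and 603 ± 75.6 CPM over the plasma-positive libraries (SD, n = 4 per group), and the groups did not overlap.

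The Smarc genes, which encode the ATPases and core subunits of SWI/SNF and related complexes, had the median nearest to 0 of the families with 5 or more members. Of 12, 7 were below 0 and 5 above, with a median of -0.14 and a range from -0.74 to 0.32, and 0 passed the test. Smarca4, the Brg1 ATPase, had 86.96, 80.9, 135 and 110.4 CPM in plasma-negative and 83.1, 64.9, 85.1 and 83.6 CPM in plasma-positive libraries, with overlap and a change of -0.38 ± 0.19 (SE; edgeR adjusted p = 0.415). Its paralogue Smarca2, the Brm ATPase, was the only Smarc gene without overlap and is given for that reason, with 95.02, 139, 133 and 128 CPM in the plasma-negative group and 94.2, 53.2, 93.5 and 55.2 CPM in the plasma-positive group and a change of -0.74 ± 0.23 (SE; edgeR adjusted p = 0.147). Smarcd2, an accessory subunit known for its need in granulocyte development, had the highest level of the members per length over all 8 libraries, with 18.3 ± 6.30 CPM per kilobase in the plasma-negative group and 22.3 ± 2.45 in the plasma-positive group. Over all 8 libraries Kmt2e was close to it (19.4 beside 20.3), and in the plasma-negative group Kmt2e was higher, at 22.2. The change of Smarcd2, 0.28 ± 0.23 (SE), was positive and not called.

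Smarcb1, a core subunit, also had a positive value of 0.32 ± 0.27 that was not called, while Smarce1 had -0.50 ± 0.45. The 12 Smarc genes summed to 627 ± 26.7 CPM over the plasma-negative and 555 ± 22.8 CPM over the plasma-positive libraries (SD, n = 4 per group), a log2 ratio of -0.18 without overlap that turned to 0.05 when the deposited RPKM values were compared on a log scale with a pseudocount of 1. On that scale the median log2 fold change of all tested genes was 0.11, so the Smarc value lay below that median.

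Of the 9 tested Arid genes, 7 were below 0, with a median of -0.36 and a range from -0.80 to 0.49, and 0 passed the test. Arid1a, the subunit that defines the BAF form of SWI/SNF, had 209, 186, 199 and 158 CPM in plasma-negative and 137, 158, 137 and 157 CPM in plasma-positive libraries. The closest libraries of the 2 groups were nearly equal, though they did not overlap, and the change was -0.36 ± 0.13 (SE; edgeR adjusted p = 0.232). Its partner paralogue Arid1b had 37.6 ± 8.61 and 42.7 ± 10.98 CPM, a change of 0.19 ± 0.27 in the other direction and also not called. Arid2, which defines the PBAF form, did not overlap, with 46.8, 56.4, 66.8 and 66.96 CPM in the plasma-negative group and 40.2, 46.5, 42.6 and 35.4 CPM in the plasma-positive group, and is named for that reason (edgeR adjusted p = 0.274).

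Arid4a, a subunit of the Sin3 deacetylase complex, had 98.1, 74.9, 131 and 90.8 CPM in the plasma-negative group and 38.9, 71.7, 71.97 and 98.3 CPM in the plasma-positive group, with overlap and a change of -0.49 ± 0.27 (SE; edgeR adjusted p = 0.459). Arid5a, known to stabilise inflammatory mRNAs such as that of interleukin 6, had the largest positive value of the members, 0.49 ± 0.39 (SE; edgeR adjusted p = 0.659), with 30.6, 12.2, 23.5 and 23.9 CPM in the plasma-negative group and 22.8, 37.01, 49.6 and 16.9 CPM in the plasma-positive group, which overlapped. The 10 Arid genes summed to 645 ± 53.9 CPM over the plasma-negative and 525 ± 49.9 CPM over the plasma-positive libraries (SD, n = 4 per group), and the sums overlapped.

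**Figure D3:**
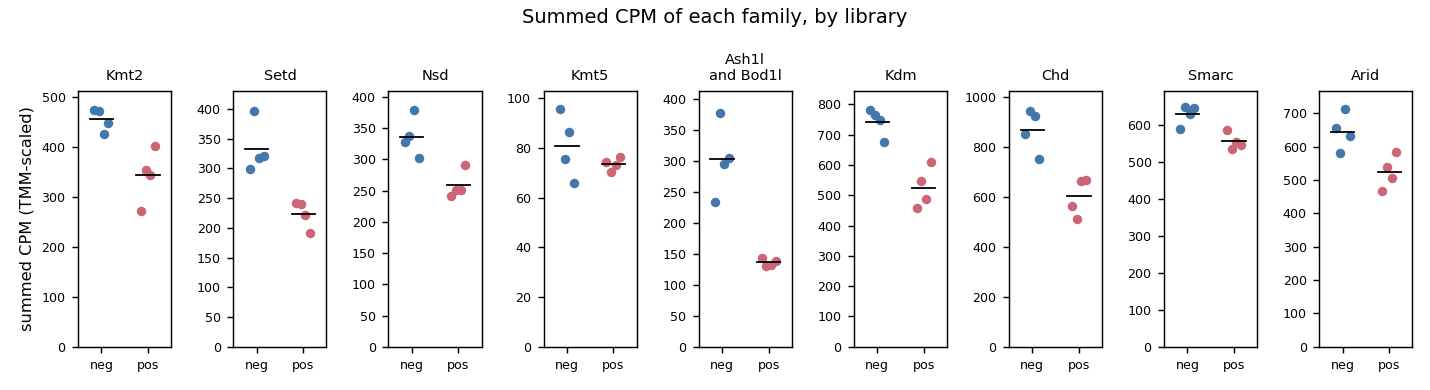
Summed CPM (TMM-scaled) of each family in each library, plasma-negative (neg) beside plasma-positive (pos); points are libraries and lines group means, and each panel has its own axis from 0. Every plasma-positive sum lies below every plasma-negative sum except in Kmt5 and Arid, where the groups overlap. The Nsd difference changes sign with the length and GC correction fitted at 32 CPM or more, the Smarc difference on the RPKM scale and the Kmt5 difference with both. On log2(RPKM + 1) the median log2 fold change of all tested genes was itself 0.11.

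The sums moved by different amounts. The pair Ash1l and Bod1l was 2.22 times higher in plasma-negative libraries. This pair is not a family: both genes were listed by their own names, with earlier results of these data known, and both were called. Among the families the ratio ran from Setd (1.49), Chd (1.44) and Kdm (1.41) to Smarc (1.13) and Kmt5 (1.10). The last 2 turn direction on the RPKM scale. There the median log2 fold change of all tested genes was 0.11 with a pseudocount of 1. All these ratios are descriptions of groups of unequal size that share the same 8 libraries, and no difference between families was tested. With the length and GC correction the family medians were -0.82 for Ash1l and Bod1l, -0.46 for Setd, -0.24 for Kdm, -0.18 for Kmt2, -0.16 for Chd, -0.13 for Smarc, -0.11 for Arid, 0.08 for Nsd and 0.10 for Kmt5. In the all-gene fit they were -0.96 for Ash1l and Bod1l, -0.60 for Setd, -0.34 for Kdm, -0.30 for Kmt2, -0.31 for Chd, -0.22 for Smarc, -0.21 for Arid, -0.11 for Nsd and 0.02 for Kmt5. Of the families, Setd had the lowest median in both fits, and only the pair listed by name, Ash1l and Bod1l, was lower. The sign of Nsd, whose 3 genes all exceed 15000 bases, differed between the fits.

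Members were set beside other protein-coding genes of like length, with at least 32 CPM on average and length classes cut after the data were seen. Among genes of over 15000 bases, 10 members had a median log2 fold change of -0.41 and 181 other genes -0.47. Between 10000 and 15000 bases, 19 members had -0.43 and 425 others -0.30, and between 6000 and 10000 bases, 9 members had -0.24 and 1176 others -0.07. At up to 6000 bases, 4 members had -0.26 and 3216 others 0.16. By median, members of over 15000 bases were thus no lower than other genes of that length, and members of the shorter classes were lower. The classes held only 4 to 19 members each. Of the 181 other genes of over 15000 bases, 9.94% were called lower, and of the 10 members in that class 2 were. Between 10000 and 15000 bases, 3.29% of the others were called lower and 2 of the 19 members were. With the length and GC correction the medians over all 42 members and the 4998 others were -0.13 and 0.00. By class from the longest to the shortest, they were 0.07, -0.18, -0.14 and -0.31 for the members and between -0.01 and 0.02 for the others.

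**Figure D4:**
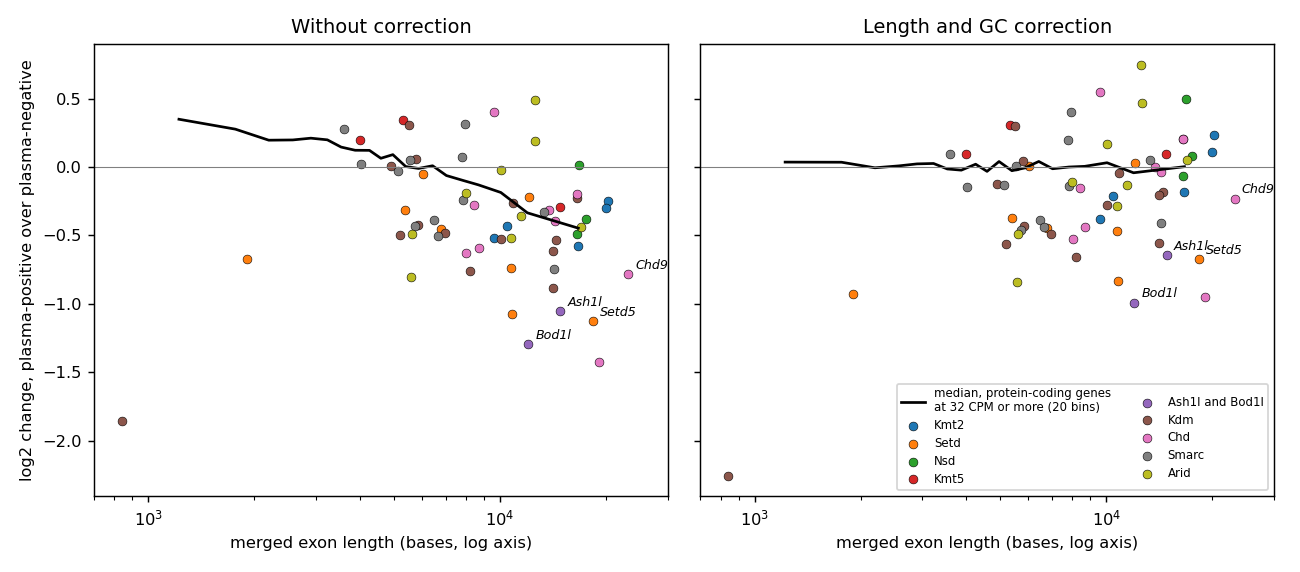
Log2 fold change (plasma-positive over plasma-negative) of each tested member against its merged exon length (log axis), coloured by family, without (left) and with (right) the length and GC correction; the black line is the median of protein-coding genes with at least 32 CPM in 20 bins of length. On the left the line falls with length and most members sit at its long end; on the right the line is near 0, and the median of the 42 members at 32 CPM or more is -0.13.

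Within the members, Spearman's rho between fold change and exon length was -0.264 over the 65 tested members (-0.302 over the 42 at 32 CPM or more) and 0.172 with the correction (0.181 over the 42). By family it was -0.429 in Setd (8 genes), -0.343 in Smarc (12), -0.30 in Chd (9) and -0.191 in Kdm (14), and 0.517 in Arid (9), all without the correction, and with it all 5 were above 0 (from 0.042 in Smarc to 0.717 in Arid). These are descriptions of few genes from the same libraries.

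A wider list of 73 chromatin genes, chosen by the complexes they belong to, gave 71 autosomal genes in the table and 69 that were tested. Of these, 2 were lower (beside 0.565% of all tested genes), 1 was higher (beside 0.844%), and 43 had a log2 fold change below 0 (beside 49.6% of all tested genes), with a median of -0.19 (-0.14 with the length and GC correction). Baz2a, the partner of Smarca5 in silencing ribosomal genes, had 45.8, 39.6, 48.2 and 31.3 CPM in plasma-negative and 9.46, 10.4, 12.03 and 15.9 CPM in plasma-positive libraries, a change of -1.79 ± 0.29 (SE; edgeR adjusted p = 0.0133). It was the only gene of the wider list called with the correction, at -1.58 (edgeR adjusted p = 0.0378), and it kept the uncorrected call when a library was left out in 5 of 8 cases and lost it without plasma-negative replicate 3 or plasma-positive replicate 1 or 2 (edgeR adjusted p from 0.05004 to 0.0566). Bptf, the large subunit of the NURF remodeller that reads methylated lysine 4, had 113, 88.1, 119.8 and 73.02 CPM in the plasma-negative group and 31.4, 54.3, 35.4 and 49.7 CPM in the plasma-positive group, a change of -1.21 ± 0.24 (SE; edgeR adjusted p = 0.0294) that was -0.88 and not called with the correction (edgeR adjusted p = 0.132) and kept its uncorrected call in 2 of those 8 cases, without plasma-negative replicate 4 or plasma-positive replicate 2, with adjusted p from 0.0641 to 0.0955 in the others. The gene called higher was Actb, the cytoskeletal actin that is also a SWI/SNF subunit, with a change of 0.41 ± 0.06 (SE; edgeR adjusted p = 0.0103) that was 0.19 and not called with the correction (edgeR adjusted p = 0.310).

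By complex, Polycomb and other histone writers had 10 of 15 below 0 and a median of -0.33 (-0.21 with the length and GC correction), and the ISWI, NuRD and INO80 partners had 14 of 22 and -0.29 (-0.33 with it). The acetyltransferases had 6 of 9 and -0.26 (-0.06 with it), and the SWI/SNF partners 10 of 13 and -0.17 (-0.29 with it), so the order of these 4 groups changed with the correction. Among the genes listed as partners of the lysine 4 methyltransferases, 3 of 10 were below 0, with a median of 0.37 (0.23 with the correction) and a median exon length of 5136 bases. They ran from -0.66 ± 0.26 (SE) in Kansl1 to 0.88 ± 0.49 in Paxip1, with the shared core subunits Wdr5 at 0.45 ± 0.26 and Rbbp5 at -0.17 ± 0.41. In Dpy30, Men1 and Wdr82 every plasma-positive library lay above every plasma-negative one, beside 5.68% of all tested genes, and in the others the groups overlapped. None of the 10 passed the test (edgeR adjusted p from 0.268 to 0.913).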

How the data were processed

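Libraries were grouped by their titles into 4 plasma-negative and 4 plasma-positive samples. The authors deposited whole-number read counts per gene, and RPKM values, for all 8 libraries, per the file headers. bcl2fastq, Trim Galore, STAR, HTSeq and mouse build mm10 are named in the submitters' processing notes; versions, strand setting and handling of multi-mapped reads are not given in the sources used here. Exon length and GC content came from GENCODE M21, in which 35546 of the 35583 gene identifiers were found, and promoter sequences from RefSeq.

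The test was edgeR's quasi-likelihood test of group, with no covariate (edgeR 4.0.16, R 4.3.3), after filtering by expression at the default setting and scaling by TMM. P-values were adjusted by Benjamini-Hochberg over 13277 genes, with calls at an adjusted p under 0.05. The length and GC correction was a loess fit per library (span 0.3, degree 2) on genes with a mean of at least 32 CPM, entered as offsets, a limit set after a fit on all tested genes was seen to leave a trend with length. All scripts that test across genes were tested on simulated data. Floors of 3 counts cover counting error only.

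Alternatives were DESeq2 1.42.0, limma 3.58.1 with voom weights or on log2(RPKM + 1) and log2(RPKM + 0.1), other normalizations and filters, thinning to the smallest total, the replicate number as a block, length corrections and leaving out each library. Chosen after seeing the data were the limit of 32 CPM in the reported correction, set beside the correction fitted on all tested genes, the corrected fits without each library, and the length classes. Genes named were the called members, the 2 tested members with the highest RPKM of each family, the 3 longest and the 3 shortest tested members, and the called genes of the wider list. Chd1, Chd5, Chd6, Kdm3a, Kdm6b, Kdm7a, Nsd2, Smarca2, Smarcb1, Smarce1, Arid1b, Arid2, Arid5a, Wdr5, Rbbp5, Kansl1, Paxip1, Dpy30, Men1 and Wdr82, and the members listed for exon overlap, were named after their values were seen. The members and lists were chosen with earlier results of these data known.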

Additional observations from a re-analysis of the deposited data

Results flagged for a closer look

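In 3 of the 68 groups of 4 libraries examined, 1 library lay further from the other 3 than Dixon's 95% critical value allows, where chance flags about 5% of groups. Setd5 in plasma-negative replicate 3 had 111 CPM, with the nearest other library of its group at 71.8 and a plasma-positive mean of 37.2. Nsd3 in plasma-positive replicate 1 had 68.3 CPM, with the nearest at 93.5. Smarca4 in plasma-positive replicate 2 had 64.9 CPM, with the nearest at 83.1. The 3 flags fall in 3 different libraries.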

How the results depend on the processing

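Ash1l and Bod1l were called lower in every fit of the raw counts that was run, those without each library included, except with length corrections; on the RPKM scale Bod1l alone was called. Chd9 and Setd5 depended on more. With the replicate number as a block, 2 members (Ash1l and Bod1l) and 74 genes in all were called, against 4 and 187, and Chd9 and Setd5 missed the threshold (edgeR adjusted p = 0.0645 and 0.0659). Same-numbered libraries deviated together with correlations of 0.0119, 0.0126, 0.0109 and 0.0315 (mean 0.0167, beside -0.00556 for different numbers), so the numbers were not taken to pair the samples. The labels do not say whether same-numbered libraries shared animals, and these correlations cannot exclude it. DESeq2 called 14 members and 963 genes. Length correction called 0 members and 68 genes, length and GC correction 0 and 73, the same fitted on all tested genes 0 and 16, and with the replicate block 0 and 12. Limma on log2(RPKM + 1) called 1 member and 447 genes, and on log2(RPKM + 0.1) 1 and 432. Leaving out 1 library at a time called between 2 and 6 members and between 66 and 203 genes. The corrected fits without each library called 0 members, and between 6 and 55 genes in all. All members called in any of these settings were lower. The cause of these shifts was not tested.

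The members' median of -0.38 was -0.12 with length correction, -0.14 with length and GC correction, -0.16 when the replicate block was added, -0.30 when the length and GC correction was fitted on all tested genes, -0.50 on library totals alone, -0.19 on log2(RPKM + 1) and -0.23 on log2(RPKM + 0.1). The corrections, in the order given, put the median of all tested genes at -0.07, -0.07, -0.04 and -0.06. Relative to it the members were at -0.06, -0.08, -0.12 and -0.24. The last 3 settings also shifted the median of all tested genes, to -0.11, 0.11 and 0.16, and relative to it the members were at -0.39, -0.30 and -0.39. Non-overlapping lower members numbered 8 on the RPKM scale (beside 3.04% of all tested genes) and 23 on library totals alone (beside 6.68%), against 15 (beside 4.59%).

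Family ratios with length correction and with length and GC correction were -0.065 and -0.093 for Kmt2, -0.34 and -0.35 for Setd, 0.076 and 0.072 for Nsd, 0.13 and 0.12 for Kmt5, -0.79 and -0.79 for Ash1l and Bod1l, -0.24 and -0.26 for Kdm, -0.16 and -0.18 for Chd, -0.083 and -0.10 for Smarc, and -0.073 and -0.10 for Arid. From RPKM with pseudocounts of 1 and 0.1 they were -0.32 and -0.33 for Setd, -0.24 and -0.25 for Nsd, 0.14 and 0.16 for Kmt5, and 0.047 and 0.048 for Smarc, and with 1 they were -0.94 for Ash1l and Bod1l and -0.35 for Kdm. On library totals Smarc was at -0.29.

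Signs of uncalled genes turned under corrections. With length and GC correction, Setd3 was at 0.0077, Nsd1 0.083, Kmt5b 0.10, Kmt2c 0.24 and Kmt2d 0.11, and with the replicate block added, 0.033, 0.10, 0.079, 0.20 and 0.082, with Kmt5c at -0.023 and Chd7 at 0.0031. With length correction alone, Nsd1 was at 0.088, Kmt5b 0.12, Chd7 0.054, Kmt2c 0.25 and Kmt2d 0.22. With the correction fitted on all tested genes, Setd3 was at -0.07, Nsd1 -0.11, Kmt5b -0.06, Kmt2c -0.01 and Kmt2d -0.30, so these 5 turns were not seen in that fit, while Smarcd2 was at -0.0051. Under limma-voom, Setd3 was at 0.027 and Setd6 at 0.22, and from RPKM, Setd3 was at 0.089 and 0.10. Leaving out single libraries took Setd3 from -0.16 to 0.12. Leaving out single libraries took Kmt5c from -0.34 to 0.66. Leaving out single libraries took Setd6 from -1.67 to 0.087. 

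The shallowest library, plasma-negative replicate 4, limits low members most: its floor of 3 counts is 1.01 CPM.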
